A study of Mus musculus and Homo sapiens with 12 samples.

Results

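In mouse T-ALL, an acute leukaemia of immature T cells, gene expression was followed over 4 diets with less and less valine. The leukaemias carried NOTCH-delta E, an activated form of the NOTCH receptor, and grew as secondary transplants in C57BL/6 mice. After 3 weeks on a diet, leukaemic cells were sorted from the spleen by their GFP and RNA was sequenced. All 8 mouse libraries of the 12 in the series were used, 1 named TALL2 and 1 named TALL3 for each diet, with 8 g/kg of valine in the control diet and 0.8, 0.4 or 0 g/kg in the restricted ones. The labels do not say what TALL2 and TALL3 mark or that libraries came from separate animals, so p-values rest on nothing more than how far these libraries spread, and that spread may be technical. The treatment protocol also describes the middle diets as valine given in drinking water beside a valine-free food, and the diets are therefore used as ranks (0, 1, 2 and 3 with falling valine) and not as doses. Of 10430 listed genes, 9943 averaged 1 FPKM (reads scaled by gene length and library depth) or more over the 8 libraries, and all of these were followed.

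Valine cannot be made by mammals and must come from food. When an amino acid runs short, uncharged tRNAs activate the kinase GCN2, which phosphorylates the initiation factor eIF2 alpha; general translation then slows while translation of the transcription factor ATF4 goes up. ATF4 switches on genes that import amino acids, make non-essential ones and charge tRNAs, and with stronger or longer stress the factors CHOP (Ddit3) and GADD34 (Ppp1r15a). NOTCH1 drives growth of T-ALL in large part through Myc.

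A stepwise gene has diet means of log2(FPKM + 1) that move a similar amount at each diet. A threshold gene departs only at 0 g/kg, a plateau gene departs at 0.8 g/kg and stays there, and a bell gene departs at 0.8 and 0.4 g/kg and is back at 0 g/kg. Each gene took the shape whose template correlated best with its 4 diet means, which is a description and not a test. Slopes are changes of log2(FPKM + 1) per diet step, fitted with the TALL number as a block. Limma tested the slope, the contrast of 0 g/kg with the other diets (threshold), the contrast of both middle diets with both ends (bell) and any diet difference, each adjusted over all 9943 genes.

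Libraries held 14218071 to 37677050 reads over the listed genes, estimated from the steps between FPKM values. The 12 listed T-ALL and thymocyte markers summed to 2560 to 3700 FPKM in every library, and none was at 0. The libraries at 0.4 g/kg stood apart from their names. Of 22 genes that separated TALL2 from TALL3 in the other 6 libraries by at least 2 on the log2 scale, 18 were nearer TALL2 in the TALL2 library at 0.4 g/kg, and 17 were also nearer TALL2 in the library labelled TALL3 at 0.4 g/kg. On a scale where TALL2 is 0 and TALL3 is 1, the median positions of these libraries were 0.291 and 0.202. Results are therefore also given without both 0.4 g/kg libraries.

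Markers of some other blood cells moved with the diets. The 9 listed neutrophil markers summed to 0.737 FPKM in the TALL2 control and 8.32 FPKM in the TALL3 control, 12.5 and 6.58 FPKM at 0.8 g/kg, 11.5 and 70.5 FPKM at 0.4 g/kg, and 530 and 293 FPKM at 0 g/kg. Both 0 g/kg libraries lay far above the other 6. In the TALL2 control 4 of the 9 were at 0. The 7 listed erythroid markers summed to 98.3 and 266 FPKM at 8 g/kg, 39.2 and 27.5 FPKM at 0.8 g/kg, 54.3 and 38.3 FPKM at 0.4 g/kg, and 1.33 and 4.7 FPKM at 0 g/kg, where 5 of the 7 were at 0 in TALL2. Both controls lay above and both 0 g/kg libraries below the other 4 erythroid sums, and in each series the sum was higher at 0.4 than at 0.8 g/kg. Macrophage and monocyte markers (7 of 10 listed) summed to 10.4 to 24 FPKM in the 6 libraries with valine and to 42.3 and 43.4 FPKM at 0 g/kg. The members did not move together: of 6 tested, 4 had a slope above 0 and 2 below, with a median of 0.05. At an unadjusted p under 0.05 in limma 1 was higher and 0 lower, beside 7.34% and 7.18% of all genes. The slope was 1.23 for Lyz2 and 0.14 for Csf1r. NK-cell markers (3 of 5 listed) summed to 460 to 863 FPKM with no order over the diets. Their sums were 568 and 460 FPKM in the control and 704 and 511 FPKM at 0 g/kg. Of the 8 B-cell and 5 platelet markers, 0 were listed. In such bulk samples fewer cells of a type and less RNA per cell cannot be told apart, and what part other cells had in the gene values below was not tested.

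**Figure D1:**
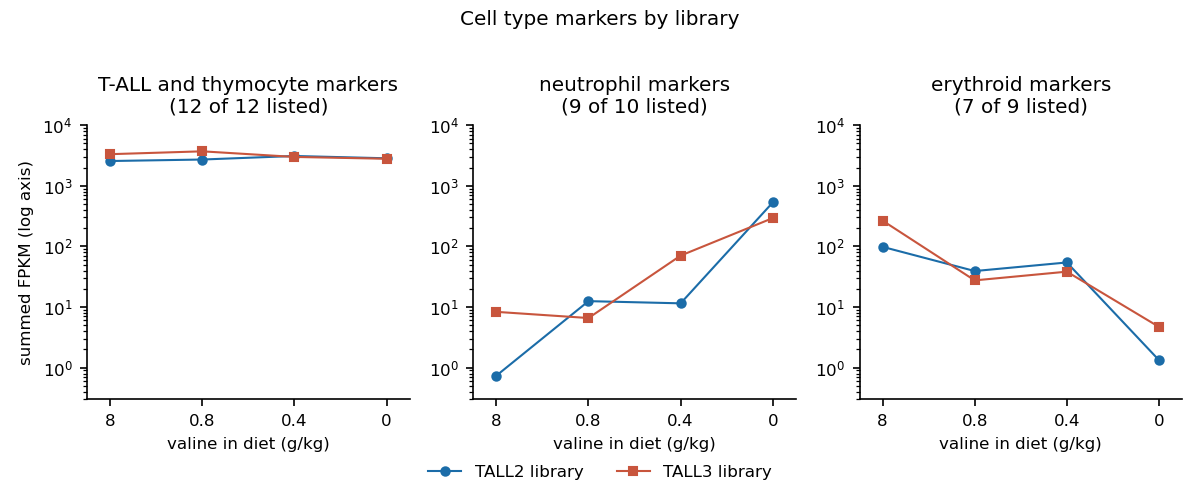
Summed FPKM (log axis) of T-ALL, neutrophil and erythroid markers in each library, against valine in the diet in g/kg from the control to none; circles and blue lines are TALL2, squares and red lines TALL3. T-ALL markers stay between 2560 and 3700 FPKM, neutrophil markers reach 530 and 293 FPKM at 0 g/kg, and erythroid markers go down to 1.33 and 4.7 FPKM.

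No gene passed an adjusted p of 0.05 in limma for the slope (0 of 9943, 0%), and voom on the recovered reads also called 0. The smallest adjusted p was 0.128 for the slope, 0.0933 for any diet difference, 0.140 for the threshold and 0.202 for the bell. All gene values below are therefore measurements that did not pass. At an unadjusted p under 0.05 the slope was higher with less valine in 730 genes (7.34%) and lower in 714 (7.18%). Voom gave 762 and 659. Without both 0.4 g/kg libraries 1 gene was called higher, Ckb, and 1 lower, the unnamed transcript Gm15340, which is named here after its value was seen.

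The shapes of the diet means were spread over all 8 classes. Of the 9943 genes, 1273 (12.8%) were stepwise upwards with less valine and 1262 (12.7%) stepwise downwards. Threshold shapes went up at 0 g/kg in 1403 genes (14.1%) and down in 801 (8.06%), and plateau shapes up in 891 (8.96%) and down in 1842 (18.5%). Bell shapes were highest in the middle diets in 769 genes (7.73%) and lowest there in 1702 (17.1%). The balance of directions within the bell and threshold shapes depended on scaling: with median-of-ratios scaling 1272 genes were bell upwards and 1184 downwards, and with quantile scaling 1330 and 971, with 941 threshold upwards and 1396 downwards. At an unadjusted p under 0.05 the threshold contrast was higher in 647 genes (6.51%) and lower in 322 (3.24%), and 426 and 533 with quantile scaling. The bell contrast was higher in the middle in 251 genes (2.52%) and lower in 652 (6.56%), 428 and 378 with median-of-ratios scaling and 434 and 297 with quantile scaling.

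Strictly ordered diet means were the exception. The 4 means ascended in 862 genes (8.67%) and descended in 795 (8%). The order held in TALL2 and in TALL3 separately for 66 ascending (0.664%) and 72 descending genes (0.724%), while 41 genes (0.412%) ascended in one series and descended in the other. Both series had the same best shape in 1784 genes (17.9%). Among the 834 genes at an unadjusted p under 0.05 for any diet difference (8.39%), which the agreement of the series helped to choose, it was 465 (55.8%). Limma called 0 genes for a difference in slope between TALL2 and TALL3, with 695 at an unadjusted p under 0.05 and a smallest adjusted p of 0.231.

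The gene with the smallest slope p was Isg15 (ENSMUSG00000035692, chromosome 4, 156199424 to 156200818, minus strand, GRCm38), an interferon-induced ubiquitin-like protein. It was at 5.04 and 10.8 FPKM (TALL2 and TALL3) at 8 g/kg, 7.35 and 12.2 FPKM at 0.8 g/kg, 10.4 and 17.96 FPKM at 0.4 g/kg, and 11.5 and 24.2 FPKM at 0 g/kg. Each step was upwards in both series, and TALL3 was higher at each diet. Its slope was 0.37 (SE 0.0377, limma adjusted p = 0.128) and 0.36 without both 0.4 g/kg libraries.

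Cyb5r1, an NADH-cytochrome b5 reductase, was at 5.52 and 7.26 FPKM (TALL2 and TALL3), then 7.01 and 8.17, 8.05 and 10.1, and 10.4 and 13.1 FPKM from 8 to 0 g/kg, with a slope of 0.26 (SE 0.0302, limma adjusted p = 0.156). In the next 2 genes TALL2 was above TALL3 at every diet. Ckb, the brain-type creatine kinase that buffers ATP, was at 7.52, 13.1, 13.5 and 31.0 FPKM in TALL2 and at 0.446, 1.01, 3.79 and 4.97 FPKM in TALL3 from 8 to 0 g/kg. Tspan9, a tetraspanin of the cell membrane, was at 8.53, 9.78, 24.2 and 43.4 FPKM in TALL2 and at 2.56, 2.94, 5.27 and 8.71 FPKM in TALL3. Both ascended at every step within each series, with slopes of 0.66 (SE 0.0803) for Ckb and 0.65 (SE 0.0844) for Tspan9. Ckb had an adjusted p of 0.156, and of 0.0436 without both 0.4 g/kg libraries, where its slope was 0.66. Tspan9 had an adjusted p of 0.160.

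Among genes lower with less valine, Myc, the growth regulator downstream of NOTCH1, was at 267 and 222 FPKM at 8 g/kg, 185 and 202 FPKM at 0.8 g/kg, 178 and 156 FPKM at 0.4 g/kg, and 161 and 112 FPKM at 0 g/kg (TALL2 and TALL3). It descended at every step in both series, and the control libraries lay above all others. Its slope was -0.28 (SE 0.0434, limma adjusted p = 0.160). Mrpl27, a protein of the mitochondrial ribosome, was at 17.1 and 16.5, 13.5 and 13.2, 12.4 and 11.9, and 11.1 and 9.88 FPKM over the same diets, a slope of -0.20 (SE 0.0285). The libraries of each diet did not overlap with those of the next. B4galt1, a galactosyltransferase of the Golgi, was at 68.0 and 73.6, 58.6 and 72.6, 51.8 and 56.2, and 47.7 and 51.3 FPKM, a slope of -0.18 (SE 0.0264). It descended within each series. The transcription factor Ets2 was at 64.8 and 101, 48.9 and 79.2, 50.3 and 63.2, and 40.8 and 61.1 FPKM, a slope of -0.22 (SE 0.0353); its TALL2 series was not strictly ordered. Mrpl27, B4galt1 and Ets2 each had a limma adjusted p of 0.160.

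**Figure D2:**
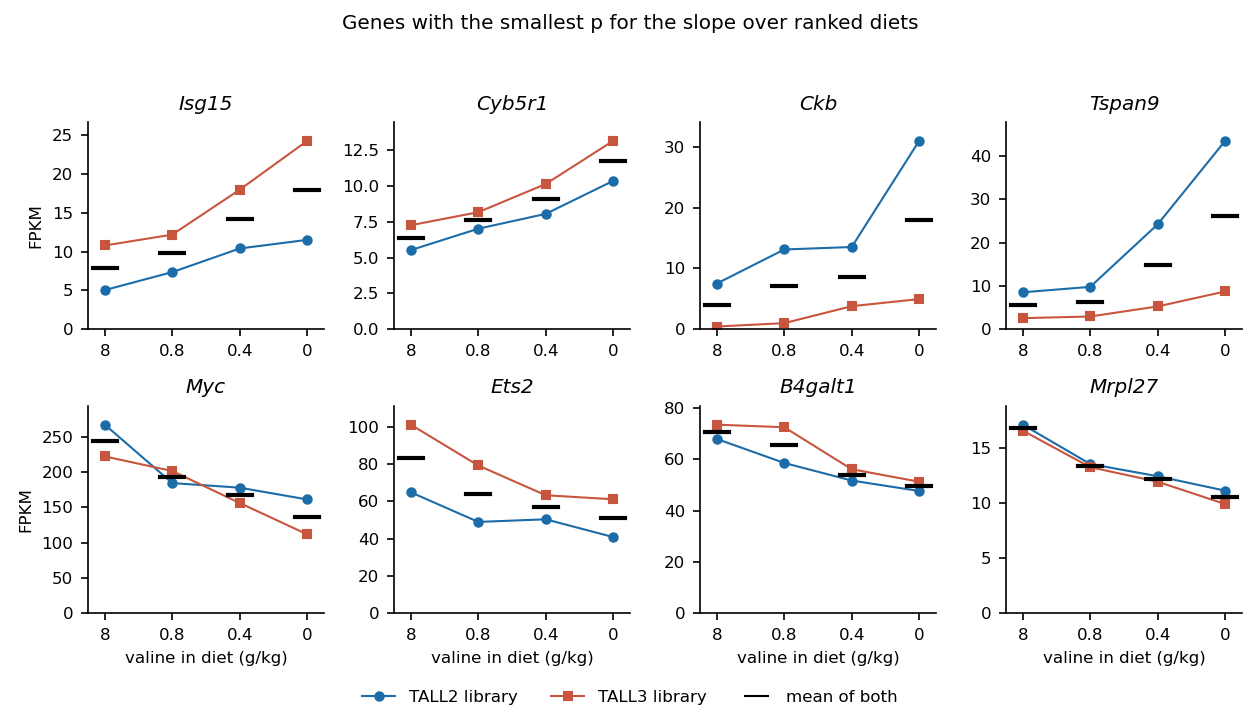
FPKM of the 8 genes with the smallest slope p, 4 per direction, in each library against valine in the diet in g/kg; circles and blue lines are TALL2, squares and red lines TALL3, and black bars are means of both libraries. Isg15, Cyb5r1, Ckb and Tspan9 ascend at each step in both series, and Myc, B4galt1 and Mrpl27 descend.

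Other genes ordered in both series covered several functions and were picked by function after their values were seen. Hspa5, a chaperone in the endoplasmic reticulum, climbed from 142 to 154, 161 and 168 FPKM in TALL2 and from 130 to 169, 205 and 254 FPKM in TALL3. Bcl2, which protects cells from apoptosis, went from 6.33 to 7.01, 10.2 and 13.6 FPKM in TALL2 and from 4.92 to 5.20, 5.23 and 11.7 FPKM in TALL3. Most of the difference in Bcl2 lay between 0.4 and 0 g/kg in TALL3. On the descending side, the T-lineage transcription factors Klf13 and Tcf12 had slopes of -0.16 (SE 0.0258) and -0.15 (SE 0.0266). Of 21 such factors tested, 1 was higher and 2 lower at an unadjusted p under 0.05, near the 7.34% and 7.18% of all genes. Their slopes were above 0 in 9 and below 0 in 12, with a median of -0.008. Prodh, which breaks down proline, went from 10.8 to 8.69, 7.67 and 6.84 FPKM in TALL2 and from 21.3 to 14.5, 9.83 and 9.80 FPKM in TALL3.

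ATF4 targets, the genes of the amino acid response, were mostly stepwise. Of 49 ATF4 targets 40 were tested, and limma called 0 of them. At an unadjusted p under 0.05, 29 were higher with less valine and 0 lower, beside 7.34% and 7.18% of all genes. The slope was above 0 in 38 of the 40 and below 0 in 2, beside 46.7% and 53.3% of all genes. This list and those below were chosen with earlier results of these data known. Their counts are therefore descriptions and not independent support. The median slope was 0.26, beside -0.006 over all genes, and it was 0.28 without both 0.4 g/kg libraries. The stepwise upward shape was the best for 26 of the 40 (12.8% of all genes) and the threshold upward shape for 8 (14.1% of all genes). With quantile scaling these numbers were 21 and 10, beside 1150 and 941 of all 9943 genes. Against the control the median member was 0.29 higher at 0.8 g/kg, 0.53 higher at 0.4 g/kg and 0.84 higher at 0 g/kg on the log2(FPKM + 1) scale.

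The steps were regular in the diet means and less so within each series. Relative to each gene's own mean, the ATF4 target median in TALL2 was -0.42 at 8 g/kg, -0.36 at 0.8 g/kg, 0.14 at 0.4 g/kg and 0.24 at 0 g/kg, so that most of the difference lay between 0.8 and 0.4 g/kg. In TALL3 it was -0.38 at 8 g/kg, 0.24 at 0.8 g/kg, -0.001 at 0.4 g/kg and 0.57 at 0 g/kg, with the 0.4 g/kg library below the 0.8 g/kg library. Of the 40 genes 35 had a slope above 0 in both series (26.3% of all genes) and 23 had ascending diet means (8.67% of all genes), but only Cebpg and Slc1a5 ascended at every step in both.

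The sequence that ATF4 binds with C/EBP partners, the amino acid response element, is shown for 4 members of different shape: Asns and Gars were stepwise, Pycr1 had a plateau and Atf3 a threshold. TGATGNAA was searched on both strands of the 250 bases before each RefSeq start (GRCm38.p6). It was found in 8 of 31 ATF4 targets with a promoter sequence (25.8%) and in 2.27% of the 7803 tested genes with one. The 8 genes were Aars, Asns, Atf3, Gars, Got1, Herpud1, Jdp2 and Pycr1. Their median slope was 0.26, and that of the members with no match was 0.28. The stretches lie at chr6:7693214-7693243 (Asns, gene on the minus strand), chr6:55037960-55037989 (Gars, plus), chr11:120643833-120643862 (Pycr1, minus) and chr1:191183425-191183454 (Atf3, minus). They are printed 5′ to 3′ on the strand of the gene, with the matched bases, or their complement, in capitals. That of Asns lies 23 to 16 bases before the RefSeq start.
Asns: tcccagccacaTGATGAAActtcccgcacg
Gars: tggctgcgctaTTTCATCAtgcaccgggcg
Pycr1: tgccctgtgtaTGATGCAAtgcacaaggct
Atf3: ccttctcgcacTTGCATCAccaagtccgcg

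Asns, asparagine synthetase, had the largest slope of the ATF4 targets. It was at 2.02 and 2.90 FPKM at 8 g/kg, 5.58 and 47.5 FPKM at 0.8 g/kg, 47.3 and 17.1 FPKM at 0.4 g/kg, and 69.2 and 84.6 FPKM at 0 g/kg (TALL2 and TALL3). The controls lay below and the 0 g/kg libraries above all others, while TALL3 was high at 0.8 g/kg already and TALL2 first at 0.4 g/kg. The slope was 1.42 (SE 0.274, limma adjusted p = 0.167) and 1.44 without both 0.4 g/kg libraries. In the TALL3 library at 0.8 g/kg, with 47.5 FPKM of Asns, neutrophil markers summed to 6.58 FPKM, less than the 8.32 FPKM of the TALL3 control. This is 1 library, and the part of other cells in the Asns values was not tested.

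Several other targets showed the same crossing of the series in the middle diets. Mthfd2, a mitochondrial enzyme of one-carbon metabolism, was at 43.0 and 37.0, 50.7 and 77.7, 86.4 and 69.5, and 87.9 and 105 FPKM (slope 0.40, SE 0.0695, limma adjusted p = 0.160). Sars, which charges serine tRNA, was at 48.4 and 47.6, 57.6 and 75.6, 74.7 and 69.8, and 81.6 and 85.4 FPKM (slope 0.25, SE 0.0434). Slc7a3, a carrier of cationic amino acids, was at 0.0169 and 0.0444 FPKM in the control and reached 6.02 and 8.07 FPKM at 0 g/kg, with 0.200 and 2.39 FPKM at 0.8 g/kg and 2.58 and 0.865 FPKM at 0.4 g/kg. In Mthfd2, Sars and Slc7a3 the TALL3 library was the higher one at 0.8 g/kg and the library labelled TALL3 the lower one at 0.4 g/kg. Cebpg, a C/EBP partner of ATF4, differed: it was at 8.90 and 8.99, 11.3 and 14.8, 12.8 and 14.8, and 14.7 and 22.1 FPKM, and ascended within each series (slope 0.29, SE 0.0484, limma adjusted p = 0.160).

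Several stress factors of the same pathway had the threshold shape. Of 15 tested regulators of this stress response, 4 had a threshold upwards (14.1% of all genes). Another 4 had a plateau downwards (18.5%) and 3 were stepwise downwards (12.7%). At an unadjusted p under 0.05, 1 was higher and 2 lower, beside 7.34% and 7.18% of all genes, with a median slope of -0.03. Ppp1r15a, a phosphatase subunit that reverses eIF2 alpha phosphorylation, was at 14.5 and 7.31, 11.2 and 8.61, 12.03 and 19.2, and 45.8 and 52.9 FPKM from 8 to 0 g/kg. Only the 0 g/kg libraries stood clear of the rest, with a threshold contrast of 1.998 (SE 0.291, limma adjusted p = 0.169). Ddit3, the factor CHOP, was at 9.19 and 10.1, 10.2 and 10.97, 8.11 and 11.5, and 13.8 and 23.5 FPKM (contrast 0.80, SE 0.147, adjusted p = 0.253). Atf3, a related stress factor, was under 2 FPKM in all but the TALL3 library at 0 g/kg, which held 6.73 FPKM. Sesn2, an inhibitor of mTORC1, and Trib3, a pseudokinase that feeds back on ATF4, had stepwise means but were far higher in one 0 g/kg library than in the other, with 3.32 and 15.1 FPKM of Sesn2 and 3.04 and 21.4 FPKM of Trib3 in TALL2 and TALL3. The Atf4 mRNA itself showed no steps: it was at 80.3 and 76.2 FPKM in the control, 66.2 and 75.9 FPKM at 0.8 g/kg, 62.5 and 86.2 FPKM at 0.4 g/kg, and 73.5 and 125 FPKM at 0 g/kg (slope 0.09, SE 0.0684, limma adjusted p = 0.553).

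**Figure D3:**
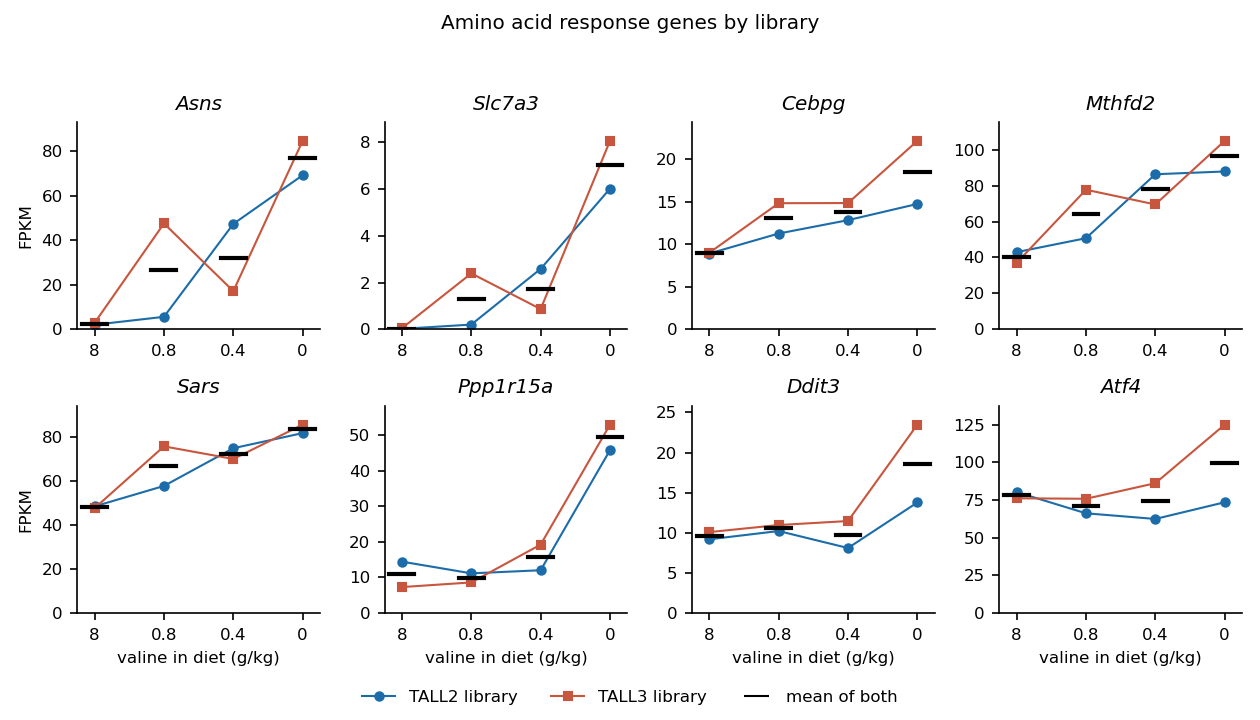
FPKM of 8 genes of the amino acid response in each library against valine in the diet in g/kg; circles and blue lines are TALL2, squares and red lines TALL3, and black bars are means of both. Asns and Slc7a3 reach 69.2 to 84.6 and 6.02 to 8.07 FPKM at 0 g/kg, Cebpg ascends at each step in both series, and Ppp1r15a leaves the range of the other diets only at 0 g/kg.

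Lists of genes that handle amino acids overlapped with the ATF4 targets. Of 23 tested amino acid transporters 8 were higher and 1 lower at an unadjusted p under 0.05, beside 7.34% and 7.18% of all genes, and 6 were stepwise upwards (12.8% of all genes). The median slope was 0.05: it was 0.22 in the 8 transporters that are also ATF4 targets and 0.02 in the other 15, of which 1 was higher and 1 lower. Slc3a2 and Slc7a5 are among the ATF4 targets. Slc3a2, the heavy chain that partners Slc7a5, was at 66.03 and 61.4, 60.97 and 83.05, 76.8 and 82.9, and 89.9 and 119 FPKM (slope 0.22, SE 0.0449). Slc7a5, which carries valine and other large neutral amino acids, was at 93.4 and 89.7, 79.0 and 132, 132 and 107, and 137 and 149 FPKM (slope 0.21, SE 0.0655). Their limma adjusted p was 0.181 for Slc3a2 and 0.251 for Slc7a5. Slc6a6, a taurine carrier, was the lower one, with 39.1 and 34.4 FPKM in the control and 20.5 to 29.0 FPKM in the other libraries.

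Of 23 cytosolic aminoacyl-tRNA synthetases 11 were higher and 2 lower at an unadjusted p under 0.05, beside 7.34% and 7.18% of all genes, and 10 were stepwise upwards (12.8% of all genes). Their median slope was 0.06, with 0.23 in the 7 that are also ATF4 targets and 0.01 in the other 16. Of these 16, 5 were higher and 2 lower at an unadjusted p under 0.05. Yars, which charges tyrosine tRNA, was at 25.3 and 31.1, 29.9 and 48.4, 49.7 and 42.7, and 49.1 and 57.6 FPKM (slope 0.30, SE 0.0581, limma adjusted p = 0.172). The valine enzymes were flat: Vars was at 145 to 161 FPKM in all 8 libraries (slope 0.04, SE 0.0242), and Vars2, its mitochondrial counterpart, at 16.8 to 21.1 FPKM (slope 0.02, SE 0.0317). Bcat1, the cytosolic transaminase of branched-chain amino acids, had a plateau. It was at 3.24 and 2.17 FPKM in the control, 5.40 and 6.83 FPKM at 0.8 g/kg, 9.97 and 7.17 FPKM at 0.4 g/kg, and 8.82 and 7.60 FPKM at 0 g/kg, so that all restricted libraries lay above both controls (slope 0.44, SE 0.0978, limma adjusted p = 0.201). Bcat2, the mitochondrial form, had a slope of 0.07. Over 26 tested genes of branched-chain amino acid breakdown the median slope was -0.02, with 2 higher and 2 lower, near the 7.34% and 7.18% of all genes. Of 32 genes of serine, one-carbon and nucleotide synthesis 7 were higher and 0 lower, beside 7.34% and 7.18% of all genes, 4 of them among the 5 that are also ATF4 targets. The median slope of 0.02 was below 0 (-0.002) in 1 of 20 alternatives, without the TALL2 library at 0 g/kg. Psat1, an enzyme of serine synthesis and one of these 5, went from 99.2 and 88.0 FPKM to 180 and 183 FPKM over the diets (slope 0.30, SE 0.0676). In the 24 genes of cholesterol synthesis the shapes were mostly a plateau downwards (11, beside 18.5% of all genes) or a bell downwards (8, beside 17.1%), with medians 0.27, 0.29 and 0.18 lower than the control at 0.8, 0.4 and 0 g/kg. The median bell contrast was -0.38 in TALL2 and -0.01 in TALL3, where the list median relative to each gene's mean was 0.03, -0.03, -0.19 and -0.19 from 8 to 0 g/kg. Insig1, a brake on sterol synthesis, was at 15.8 and 13.7 FPKM in the control, 5.71 to 9.24 FPKM in the middle diets, and 14.1 and 7.59 FPKM at 0 g/kg.

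Interferon-induced genes also had mostly stepwise diet means, but the steps were not regular within each series. Of 31 tested, 22 were higher and 0 lower at an unadjusted p under 0.05, beside 7.34% and 7.18% of all genes, and limma called 0. The median slope was 0.17 and 0.20 without both 0.4 g/kg libraries. The stepwise upward shape was the best for 19 (12.8% of all genes), and for 15 with quantile scaling (1150 of all 9943 genes). Only 3 of the 31 ascended at every step in both series (0.664% of all genes). Medians were 0.20, 0.39 and 0.58 above the control at 0.8, 0.4 and 0 g/kg. The median slope was 0.13 in TALL2 and 0.26 in TALL3. In TALL2 the list median relative to each gene's mean was -0.68 at 8 g/kg and between -0.27 and -0.12 at the other diets, whereas in TALL3 it was 0.02, 0.15, 0.26 and 0.92 from 8 to 0 g/kg. Oasl2, a 2′-5′ oligoadenylate synthetase-like protein, was at 3.13, 5.11, 6.42 and 7.62 FPKM in TALL2 and at 2.36, 3.32, 8.26 and 19.4 FPKM in TALL3, ascending in both (slope 0.62, SE 0.115, limma adjusted p = 0.163). Zbp1, a sensor of Z-form nucleic acids, went from 2.69 to 4.37 FPKM in TALL2 and from 4.56 to 13.1 FPKM in TALL3, also in order.

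The interferon-stimulated response element, searched as TTTC and TTTC with any pair of bases between them, was found on either strand of the 250 bases before the RefSeq start in 11 of 26 members with a promoter sequence (42.3%) and in 3.22% of the 7803 genes. The stretches of 3 members with such an element are shown because Isg15 had the smallest slope p of all genes and the other 2 are classical antiviral genes with a smaller slope. They lie at chr4:156200871-156200900 (Isg15, minus strand), chr19:34640775-34640804 (Ifit1, plus) and chr5:120777715-120777744 (Oas3, minus) in GRCm38.p6. Capitals mark the match, or its complement. The promoter of Isg15 held 3 overlapping matches, of which the middle one is shown.
Isg15: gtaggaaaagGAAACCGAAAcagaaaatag
Ifit1: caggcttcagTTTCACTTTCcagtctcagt
Oas3: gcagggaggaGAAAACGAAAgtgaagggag

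The slope of Ifit1 was 0.33 and that of Oas3 was 0.35. Ifit1, which binds viral RNA, was at 0.380 and 0.795 FPKM in the control and 0.994 and 3.75 FPKM at 0 g/kg. Oas3, a synthetase of 2′-5′ oligoadenylates, was at 4.34 and 5.96 FPKM and at 5.33 and 23.2 FPKM, so that its TALL2 library at 0 g/kg was inside the range of the control and TALL3 carried the difference. MHC class II genes, which dendritic cells and other antigen-presenting cells express and interferon also induces, were higher in the same libraries: Cd74 was at 1.498 and 13.7 FPKM in the control and 11.5 and 73.0 FPKM at 0 g/kg. Their part in the interferon values was not tested.

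Genes of the endoplasmic reticulum stress response had mixed shapes. Of 27 tested, 12 were higher and 0 lower at an unadjusted p under 0.05, beside 7.34% and 7.18% of all genes, with a median slope of 0.10 (0.02 in TALL2 and 0.15 in TALL3). The best shape was stepwise upwards for 7, threshold upwards for 6 and plateau upwards for 8, beside 12.8%, 14.1% and 8.96% of all genes. Xbp1, a transcription factor of this response, was at 25.1, 25.2, 28.3 and 29.97 FPKM in TALL2 and at 27.0, 32.2, 35.0 and 45.0 FPKM in TALL3 (slope 0.16, SE 0.0350, limma adjusted p = 0.201). Atf6, another one, was at 14.96 and 12.4 FPKM in the control and 26.3 and 25.3 FPKM at 0 g/kg (slope 0.28, SE 0.0493, adjusted p = 0.160).

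The cell cycle was divided. Of 44 genes of DNA replication 12 were higher and 0 lower at an unadjusted p under 0.05, beside 7.34% and 7.18% of all genes. The best shape was stepwise upwards for 20 (12.8% of all genes) and threshold upwards for 15 (14.1%). With median-of-ratios scaling it was so for 29 and 6, beside 1300 and 1160 of all 9943 genes. The median difference from the control was -0.07 at 0.8 g/kg, 0.12 at 0.4 g/kg and 0.25 at 0 g/kg. The median slope was 0.10, but 0.17 in TALL2 and 0.02 in TALL3. Pola2, a subunit of DNA polymerase alpha, was at 47.6 and 50.4, 47.7 and 56.8, 62.8 and 55.8, and 67.4 and 61.9 FPKM (slope 0.14, SE 0.0340, limma adjusted p = 0.208). Cdc45, part of the replicative helicase, was at 30.1 and 40.1, 32.7 and 54.2, 49.5 and 44.9, and 47.9 and 61.9 FPKM (slope 0.21, SE 0.0539). Ccne2, the cyclin that opens S phase, was at 9.88 and 11.5, 8.90 and 14.8, 14.2 and 15.3, and 17.0 and 21.1 FPKM (slope 0.27, SE 0.0473, adjusted p = 0.160).

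Mitotic genes had a bell or a threshold and no steps. Of 39 tested, 25 were bell-shaped with the middle diets highest (7.73% of all genes) and 14 had a threshold downwards at 0 g/kg (8.06%). No other shape occurred, also under median-of-ratios scaling (29 and 10) and quantile scaling (27 and 12). At an unadjusted p under 0.05 the bell contrast was higher in the middle in 33 of 39 and lower in 0, beside 2.52% and 6.56% of all genes, and the threshold contrast was lower in 27, beside 3.24%. Medians were 0.28 and 0.39 above the control at 0.8 and 0.4 g/kg and 0.27 below it at 0 g/kg. Relative to each gene's mean, the list median was -0.20, -0.03, 0.33 and -0.59 in TALL2 from 8 to 0 g/kg. In TALL3 it was -0.03, 0.43, 0.24 and -0.13. The median threshold contrast was -0.62 in TALL2 and -0.33 in TALL3. The median bell contrast was 0.54 in TALL2 and 0.40 in TALL3, and with only 1 of the middle diets it was 0.43 (without 0.4 g/kg) and 0.52 (without 0.8 g/kg). The median slope of -0.07 hides this shape, and it turned positive without the TALL2 library at 0 g/kg (0.03) and with the diets coded by g/kg (0.03).

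Ccnb2, cyclin B2 (chromosome 9, 70407692 to 70421547, minus strand), which drives entry into mitosis, was at 82.3 and 95.8 FPKM at 8 g/kg, 84.7 and 133 FPKM at 0.8 g/kg, 102 and 113 FPKM at 0.4 g/kg, and 33.2 and 55.0 FPKM at 0 g/kg. Both 0 g/kg libraries lay below the other 6, with a threshold contrast of -1.21 (SE 0.136, limma adjusted p = 0.140). Hmmr, a spindle protein, was at 15.5 and 18.5, 21.5 and 32.3, 28.9 and 28.8, and 12.2 and 18.2 FPKM, with all middle-diet libraries above all end-diet libraries (bell contrast 0.76, SE 0.115, limma adjusted p = 0.465). Cdkn3, a phosphatase of CDKs, was at 7.26 and 8.89, 8.17 and 12.7, 9.92 and 12.2, and 3.33 and 5.28 FPKM (threshold contrast -1.04, SE 0.107, adjusted p = 0.140). Cenpa, the histone H3 variant of centromeres, was at 53.03 to 64.99 FPKM in the 6 libraries with valine and at 20.1 and 37.2 FPKM at 0 g/kg. The cell cycle homology region TTTGAA, a short element of mitotic promoters, was present on either strand in 11 of 31 mitotic genes with a promoter sequence (35.5%) and in 12.5% of the 7803 genes. Those of Cdc20, the activator of the anaphase-promoting complex (chr4:118437344-118437373, minus strand), and of Kif11, a spindle motor (chr19:37376351-37376380, plus strand), are shown as 1 threshold and 1 bell gene, with the match or its complement in capitals.
Cdc20: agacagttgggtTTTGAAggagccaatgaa
Kif11: tcgtctccatttTTCAAAattgaggcgcgg

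Cdc20 was at 59.5 and 90.1, 65.6 and 123, 82.3 and 82.0, and 33.6 and 53.8 FPKM. Kif11 was at 59.4 and 69.5, 72.6 and 103, 104 and 89.6, and 49.3 and 69.7 FPKM. Kif11 at 0 g/kg was thus near its control values, and Cdc20 was below them.

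**Figure D4:**
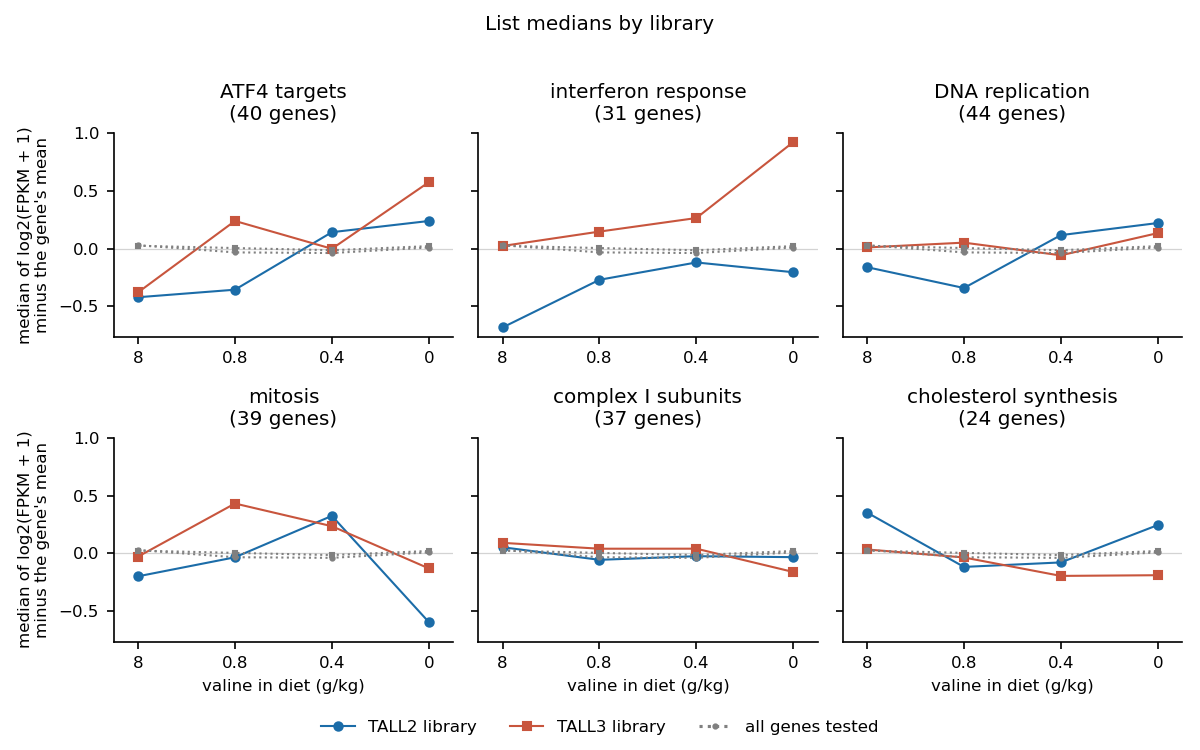
Median over each list's tested genes of log2(FPKM + 1) minus the gene's own mean, by library, against valine in the diet in g/kg; circles and blue lines are TALL2, squares and red lines TALL3, and grey dotted lines are all 9943 genes. ATF4 targets and interferon genes are highest at 0 g/kg in TALL3 (0.57 and 0.92), and mitosis genes are higher in the middle diets than at 0 g/kg in both series.

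Other genes outside these lists also had a bell or a threshold. Rdm1, a RAD52-related protein of DNA repair, was at 11.5 and 10.9, 18.5 and 19.1, 19.8 and 25.5, and 12.1 and 15.2 FPKM (bell contrast 0.70, SE 0.095, limma adjusted p = 0.465), and Mns1, a protein of cilia and sperm tails, at 13.6 and 13.0, 20.1 and 18.5, 22.3 and 19.7, and 16.9 and 13.4 FPKM. In both, all 4 middle-diet libraries lay above the 4 others. Blk, a SRC-family kinase (chromosome 14, 63372836 to 63417037, minus strand), was lowest in the middle diets, at 11.8 and 5.53 FPKM at 8 g/kg, 3.35 and 2.13 FPKM at 0.8 g/kg, 2.07 and 1.084 FPKM at 0.4 g/kg, and 28.3 and 11.3 FPKM at 0 g/kg. Its bell contrast was -2.11 (SE 0.156, limma adjusted p = 0.202); with a pseudocount of 0.1 it was -2.52 (adjusted p = 0.0492). Voom on the recovered reads called its threshold contrast (2.54, adjusted p = 0.0465), which limma did not (2.11, adjusted p = 0.140). Ndrg1, a stress-responsive gene, was at 40.6 and 63.0, 29.96 and 54.5, 33.6 and 52.5, and 19.8 and 28.7 FPKM, lower at 0 g/kg than in all other libraries (threshold contrast -0.86, SE 0.084, adjusted p = 0.140). Among the upward thresholds of smallest p were Retnlg, Camp and Ltf, which neutrophils express: Retnlg was at 0 to 2.07 FPKM in the 6 libraries with valine and at 17.4 and 13.1 FPKM at 0 g/kg.

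**Figure D5:**
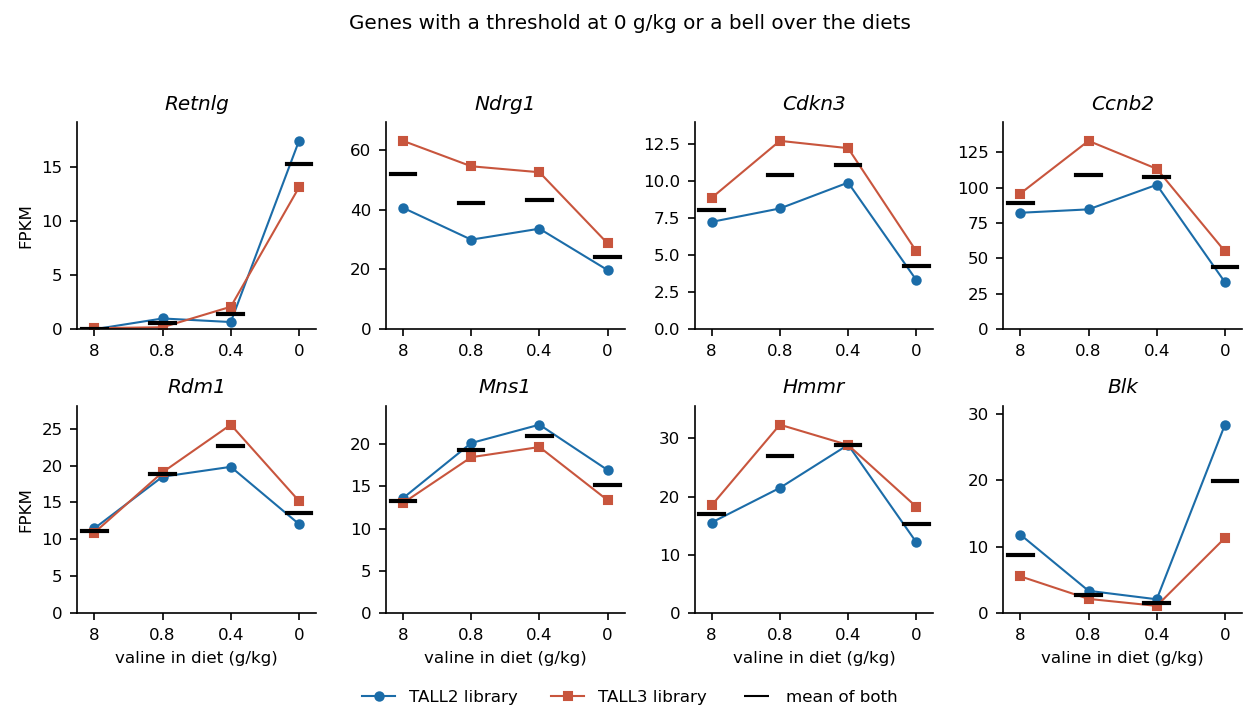
FPKM of 8 genes with a threshold at 0 g/kg (Retnlg, Ndrg1, Cdkn3, Ccnb2) or a bell (Rdm1, Mns1, Hmmr, and downwards Blk) in each library against valine in the diet in g/kg; circles and blue lines are TALL2, squares and red lines TALL3, and black bars are means of both. Rdm1, Mns1 and Hmmr are higher in all middle-diet libraries than in all others, and Blk is lowest there.

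Immediate-early genes, which respond within minutes to growth signals, mostly had a threshold upwards (9 of 15, beside 14.1% of all genes). At an unadjusted p under 0.05, 9 were higher and 1, Myc, lower, beside 7.34% and 7.18% of all genes. The median slope was 0.43, with 0.13 in TALL2 and 0.65 in TALL3. Fos was at 17.3 and 6.61, 9.69 and 6.43, 9.74 and 25.2, and 58.8 and 61.3 FPKM, and Junb at 160 and 65.9, 103 and 78.4, 88.8 and 187, and 270 and 477 FPKM. The library labelled TALL3 at 0.4 g/kg was the next highest after the 0 g/kg libraries in both, as it was for the neutrophil sum (70.5 FPKM). The part of neutrophils in these values was not tested.

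Most lists of mitochondrial genes had small median slopes below 0, nearer to 0 in TALL2 than in TALL3. Of 37 complex I subunits, which pass electrons from NADH into the respiratory chain, 0 were higher and 11 lower at an unadjusted p under 0.05, beside 7.34% and 7.18% of all genes, with a median slope of -0.05 (-0.02 in TALL2 and -0.08 in TALL3). Their shapes were plateau downwards (11, beside 18.5% of all genes) and stepwise downwards (11, beside 12.7%). Next came threshold downwards (7, beside 8.06%) and bell upwards (7, beside 7.73%). The threshold downward shape led with median-of-ratios scaling (14, beside 1145 of all 9943 genes). Ndufa7, an accessory subunit, was at 63.6 and 76.7, 62.8 and 71.2, 58.5 and 62.9, and 58.5 and 54.0 FPKM (slope -0.11, SE 0.0306, limma adjusted p = 0.229). Ndufs1, the largest subunit, was at 49.3 to 53.6 FPKM in all libraries. With the 0 g/kg library of TALL3 left out, the median was -0.03. Complexes II to IV had 0 higher and 7 lower of 24, against the same shares of all genes, with a median slope of -0.01 in TALL2 and -0.07 in TALL3. Mitochondrial ribosomal proteins had 1 higher and 11 lower of 74, with -0.004 in TALL2 and -0.05 in TALL3; the median of -0.03 over both series was -0.008 without the TALL3 library at 0 g/kg and -0.05 without the TALL2 library. Genes of the TCA cycle had 1 higher and 4 lower of 25, with -0.01 in TALL2 and -0.07 in TALL3, and a median of -0.04 that was -0.02 without the TALL3 library at 0 g/kg. ATP synthase genes had 0 higher and 2 lower of 14, with a median slope of 0.007 in TALL2, above 0, and -0.07 in TALL3. Their median of -0.03 over both series was 0.008 without the TALL3 library at 0 g/kg. Mitochondrial aminoacyl-tRNA synthetases, with 0 higher and 1 lower of 16, had a median slope of 0.005. Outside mitochondria, proteasome subunits had 2 higher and 9 lower of 45 (median slope -0.03, and -0.01 without the TALL3 library at 0 g/kg). Uqcrfs1, the iron-sulfur protein of complex III, had a plateau, with 125 and 125 FPKM in the control and 88.3 to 106 FPKM in the 6 restricted libraries (slope -0.14, SE 0.0356, adjusted p = 0.214).

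Cytosolic ribosomal proteins had no common direction (3 higher and 5 lower of 75, beside 7.34% and 7.18% of all genes, median slope -0.01). As deposited, 22 of 75 were bell-shaped downwards (17.1% of all genes). With median-of-ratios scaling 12 of these proteins were, beside 1184 of all 9943 genes. Rpl5, of the large subunit, stood out from them with a plateau, at 34.0 and 29.6 FPKM in the control and 12.004 to 18.5 FPKM in the 6 restricted libraries (slope -0.36, SE 0.0708, limma adjusted p = 0.178). Ribosomal protein genes have near-identical pseudogenes, so these values are uncertain where reads were shared. Of 17 NOTCH receptors and targets 0 were higher and 3 lower at an unadjusted p under 0.05, beside 7.34% and 7.18% of all genes. The 3 were Myc, Heyl and Notch3. Over all 17 genes the median slope was -0.04, with 6 above 0 and 11 below. Heyl, a repressor switched on by NOTCH, was at 65.3 and 57.3, 53.2 and 58.5, 45.5 and 50.5, and 38.9 and 44.3 FPKM (slope -0.19, SE 0.0320, adjusted p = 0.160). Hes1, of the same family, had another shape, with 68.2 to 99.8 FPKM in the 6 libraries with valine and 161 and 122 FPKM at 0 g/kg (slope 0.18, SE 0.112, adjusted p = 0.492). The slope of Notch1 itself was -0.13 (adjusted p = 0.365). Dtx1, a ubiquitin ligase of the pathway, was at 365 to 551 FPKM with no order.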

How the data were processed

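RNA of sorted mouse T-ALL cells was purified on RNeasy columns and made into strand-specific libraries, per the labels' protocols. Per the submitters' processing notes STAR and edgeR were used with mm10. Their versions and steps, and how reads were assigned to genes, are not stated. The values the authors deposited are FPKM per gene and library. Members and gene lists were chosen with earlier results of these data known.

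Limma 3.58.1 (R 4.3.3), with its trend option, tested genes averaging 1 FPKM or more. The values entered as log2(FPKM + 1), with the TALL number as a block, two-sided, with Benjamini-Hochberg adjustment over 9943 genes. The scale understates changes of low genes. Ratios of FPKM were whole numbers to a relative tolerance of 1e-12, which gave reads for all 10430 listed genes. Total reads were 21247981 and 16080866 (8 g/kg, TALL2 and TALL3), 16005295 and 25832053 (0.8), 37677050 and 16806872 (0.4), and 18614557 and 14218071 (0). Libraries of 1 diet differed beyond counting noise (chi-square over degrees of freedom 38.5 to 93.3). Voom used these reads.

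Deviations of TALL2 and TALL3 from the diet means correlated between diets at 0.363 to 0.743 without 0.4 g/kg, and at 0.0588, -0.174 and 0.425 for 0.4 with 8, 0.8 and 0 g/kg, so the numbers do not pair every diet. Tested on simulated data, the slope test found 40.3% of genes changed by 1.5-fold from 8 to 0 g/kg, 86.6% by 2-fold and 97.0% by 4-fold. It made 8 false calls. The simulation had even steps, independent noise and a TALL difference alike at every diet, unlike the 0.4 g/kg libraries here. Its shares may therefore not hold for these data.

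Named genes are those past the threshold for the slope, threshold and bell, filled by smallest p (at least 5 FPKM in the highest diet mean) to 4, 3 and 3 per direction, the 2 of smallest slope p from each list, and 17 fixed genes of the valine, ATF4, complex I and NOTCH questions. Other genes in the text were chosen after their values were seen. Symbols missing from the table (318) came from a reference list. Promoters and coordinates are from RefSeq (GRCm38.p6) and GENCODE (GRCm38). Genes with a mean under 1 FPKM and the human libraries were not analysed here.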

Additional observations from a re-analysis of the deposited data

How the results depend on the processing

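Of 107 named gene slopes 95 kept their sign under every alternative run, and of 39 list medians 21 did. Most named genes were picked by smallest p in these same libraries, which favours a stable sign. The alternatives reuse these libraries, so the share of named genes is not independent support. Without the replicate block limma called 0 genes, with 587 higher and 633 lower at an unadjusted p under 0.05; the block changed no call. Leaving out 1 library gave 445 to 774 genes higher and 293 to 986 lower for the slope at an unadjusted p under 0.05, 299 to 1005 for any diet difference, 323 to 752 higher and 175 to 371 lower for the threshold, and 121 to 291 higher and 252 to 740 lower for the bell. Without the TALL2 control there were 301 lower for the slope, 299 for any difference, 401 and 175 for the threshold, and 121 and 252 for the bell. Without the TALL3 control these were 445 higher and 293 lower, 331, 408 and 180, and 133 and 305. Without TALL3 at 0 g/kg the threshold had 323 higher and 183 lower. A pseudocount of 0.1 called 1 bell and voom 1 threshold gene, both Blk. Without both 0.4 g/kg libraries 1 gene passed upwards and 1 downwards, with 154 and 322 bell genes at an unadjusted p under 0.05. Median-of-ratios scaling gave 428 and 378 bell genes and 1272 bell shapes upwards. Quantile scaling gave 426 and 533 threshold genes, 434 and 297 bell genes, and 1330 bell up, 971 bell down and 1396 threshold down shapes. Diets coded by g/kg gave 481 genes higher, and the restricted diets alone 377 higher and 139 lower. TALL2 alone had 498 ascending and 491 descending genes, and TALL3 alone 1900 stepwise down and 1073 plateau down. The causes were not tested. With 2 libraries per diet, 1.5-fold changes in even steps were often missed in simulated data. What size of change is missed in these libraries was not tested.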
